A study of Danio rerio with 6 samples.

Results

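A set of 8 transcription factor genes known from the sclerotome and the pharyngeal pouches were followed across 3 sorted populations of zebrafish embryonic trunk cells: pax1a, pax1b, pax9, twist1a, twist1b, nkx3.2, foxc1a and foxc1b. They were picked by symbol because transcripts of pax1a were nearly confined to 1 of the 3 sorts, so the pax1a levels below are a description of that choice and carry no test. All 8 symbols were present in the count tables, with 11 of 54437 transcripts, and they make up 8 of 30677 symbols. RNA had been sequenced from GFP-positive cells of wild-type embryos at 14 hours post fertilisation, whose brain and tail had been cut off before the trunk was dissociated. The cells came from 3 transgenic lines that carry a bacterial artificial chromosome (BAC) reporter: TgBAC(nkx2.2a:memGFP), with a membrane form of GFP, TgBAC(olig2:GFP) and TgBAC(dbx1b:GFP). The labels call the sorted cells neural progenitors; nkx2.2a, olig2 and dbx1b are known to mark separate dorsoventral domains of the neural tube. Each sort had 2 libraries, numbered 1 and 2, and nothing in the labels says that they came from separate pools of embryos. Line, reporter, sort and group coincide and cannot be told apart.

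The sclerotome is the ventral and medial part of the somite, whose cells leave the epithelium and form the axial skeleton and tendons. Hedgehog ligand from the notochord and floor plate induces it, and the paired-box genes Pax1 and Pax9 are its classical markers in vertebrates. The same paired-box genes are also expressed in the endoderm of the pharyngeal pouches, the outpocketings of the foregut between the pharyngeal arches. The other genes followed here act more widely: Twist1 in mesenchyme of mesodermal and neural crest origin, Nkx3.2 downstream of Pax1 and Pax9 in mouse sclerotome and in jaw joint cartilage, and Foxc1 in unsegmented and segmented paraxial mesoderm.

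The libraries held 3254516 to 6933417 fragments mapped to transcripts, which was 19.4% to 33.4% of all fragments. Levels are given in CPM, fragments per 1000000 mapped fragments after scaling for library composition (TMM), and 3 fragments, the upper limit for a gene with none, corresponded to between 0.422 and 0.913 CPM, covering counting error only. Each reporter gene was highest in both libraries of its own sort. The gene nkx2.2a stood at 489 and 366 CPM in the nkx2.2a libraries and at 27.0 CPM or less elsewhere. The level of olig2 was 220 and 127 CPM in its own sort but 19.0 and 70.9 CPM in the nkx2.2a libraries. That of dbx1b was 178 and 215 CPM in its own sort but 11.4 and 49.6 CPM in the nkx2.2a libraries. Both were thus higher in nkx2.2a library 2 than in library 1. Of 14 neural progenitor genes, the summed level was 2863 to 3678 CPM over the 6 libraries, so the list as a sum was abundant in every sort. Its most abundant genes were cdh2, sox19a and notch3. Single genes were not even: sox1b stood at 91.4 and 101 CPM in the nkx2.2a libraries but 2.28 and 7.87 CPM in the dbx1b libraries. The gene pax6a stood at 32.3 and 27.7 CPM in the nkx2.2a libraries against 132 to 159 CPM elsewhere. Both sox1b and pax6a were named after their values were seen. Replicate libraries of a sort differed by far more than counting error, with a chi-square of 39.6 to 45.4 per degree of freedom.

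The 8 genes did not share one pattern over the sorts. Levels of pax1a and pax9 were highest in both nkx2.2a libraries. For pax1b there were 13 fragments in nkx2.2a library 1, but only 1 in nkx2.2a library 2 and 1 in dbx1b library 1. The latter 2 libraries lay under the level of 3 fragments, so any order of the sorts rested on nkx2.2a library 1 and is not read. Levels of twist1b, foxc1a and foxc1b were highest in both dbx1b libraries, and those of twist1a and nkx3.2 overlapped among all 3 sorts. For comparison, 8.16% of all 16956 genes tested had both nkx2.2a libraries above the other 4, 9.85% had both dbx1b libraries above the other 4, and 8.47% had both olig2 libraries on top, which 0 of the 8 genes had. Both libraries of a sort lay below the other 4 for 6.85% (nkx2.2a), 11.9% (olig2) and 7.64% (dbx1b) of all genes, and for 0 of the 8 in each sort. The gene pax1b is not among the genes tested. Since pax1a chose the list, the first of these shares is printed beside it without being read. In bulk RNA of this kind, fewer cells of a type and less RNA per cell cannot be told apart.

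**Figure D1:**
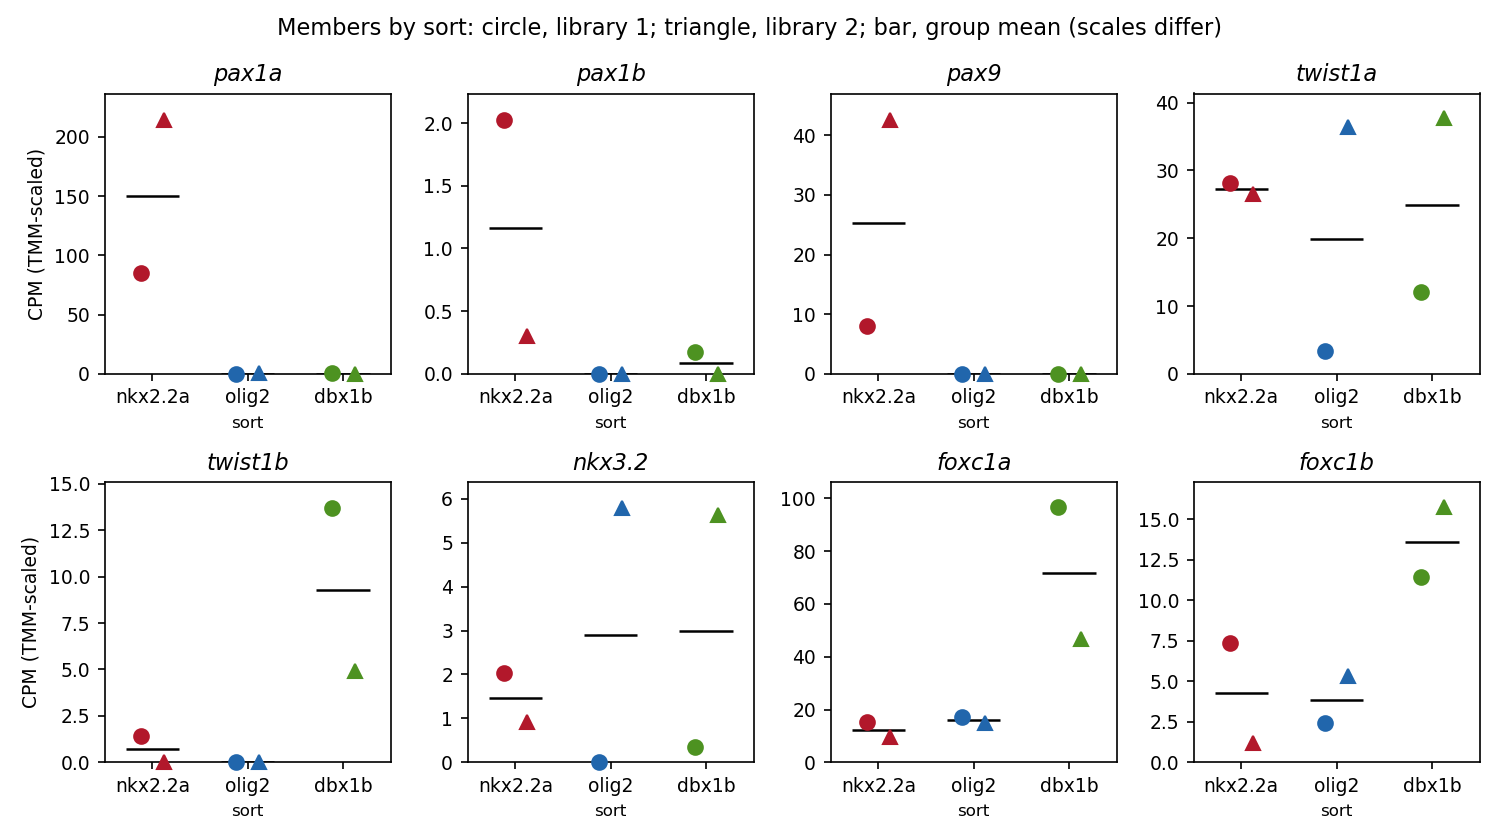
TMM-scaled CPM of each of the 8 genes (vertical axis, 1 scale per panel, starting at 0) in the nkx2.2a, olig2 and dbx1b sorts. Circles are library 1, triangles library 2 and bars the mean of 2 libraries; pax1a and pax9 lie highest in both nkx2.2a libraries, whereas twist1b, foxc1a and foxc1b lie highest in both dbx1b libraries.

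Among the paired-box genes, pax1a encodes the zebrafish Pax1 protein with the more abundant transcript here. The nkx2.2a libraries held 546 and 705 of its fragments, the olig2 libraries 0 and 2, and the dbx1b libraries 3 and 0. Of its 1256 fragments, 99.6% lay in the nkx2.2a libraries. Its level was 85.2 and 215 CPM in the nkx2.2a libraries, a mean of 149.9 ± 91.6 CPM (SD, n = 2), and was at or under the level of 3 fragments in each of the other 4. With both libraries of a sort pooled, the ratio of nkx2.2a to olig2 cells was 479 (exact 95% counting interval 132 to 3963) and that of nkx2.2a to dbx1b cells was 551 (188 to 2676). These intervals cover counting error only, and the nkx2.2a libraries differed from each other 2.52-fold.

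The gene pax9, which encodes a paralogous paired-box factor, followed the same order at a lower level. It had 51 and 140 fragments in the nkx2.2a libraries, or 7.95 and 42.6 CPM, and 0 fragments in each of the other 4 libraries. Both nkx2.2a libraries thus lay above all others, with a mean of 25.3 ± 24.5 CPM (SD, n = 2). Measured against a floor of 3 fragments over the group, pax9 was at least 48.8-fold higher in the nkx2.2a sort than in the olig2 sort and at least 84.1-fold higher than in the dbx1b sort. Over the 6 libraries, Pearson's correlation of its log2(CPM + 1) with that of pax1a was 0.978, a description of 6 points, of which 4 lay at or near 0 for both genes. The count of pax9 was spread over 2 transcript models, which received 96 and 95 fragments in all.

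The gene pax1b, the second zebrafish Pax1 copy, was barely detected. It had 13 and 1 fragments in the nkx2.2a libraries, 1 in dbx1b library 1 and 0 in the remaining 3, and it was the only member that did not pass the filter on low counts. In nkx2.2a library 1 its fragments were 2.38% of those of pax1a, and in library 2 they were 0.142%. The libraries were thus ranked in opposite order by the 2 Pax1 copies. The labels do not say how reads that match both copies were assigned, so single fragments of pax1b are uncertain.

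In the RefSeq annotation of a later zebrafish assembly (GRCz12tu), pax1a is the next protein-coding gene beside nkx2.2a, the gene behind the BAC reporter of the sort in which it was found. How far that BAC extends is not given in the labels, and transcripts of a BAC copy and of the chromosomal copy cannot be told apart. The protein-coding gene on the other side of nkx2.2a, nkx2.4a, stood at 27.3 and 7.31 CPM in the nkx2.2a libraries, 18.3 and 3.62 CPM in the olig2 libraries and 13.5 and 16.0 CPM in the dbx1b libraries. Its levels overlapped among the sorts. The gene foxa2, which encodes a forkhead factor of floor plate and endoderm and lies next after pax1a, stood at 49.6 and 86.8 CPM in the nkx2.2a libraries and at 6.99 to 35.0 CPM in the other 4. Between the nkx2.2a libraries, nkx2.2a itself went from 489 to 366 CPM where pax1a went from 85.2 to 215 CPM, so the neighbours were ranked in opposite order.

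The gene pax9 does not adjoin nkx2.2a: its next protein-coding neighbours in that annotation are slc25a21 and nkx2.9. The homeobox gene nkx2.9, also known from the ventral neural tube, stood at 121 and 47.5 CPM in the nkx2.2a libraries, 102.6 and 103 CPM in the olig2 libraries and 0.176 and 2.95 CPM in the dbx1b libraries. It was thus abundant in the olig2 libraries, in which pax9 had no fragment. The next gene beyond it, nkx2.1, stood at 34.0 and 39.0 CPM in the nkx2.2a libraries, 12.8 and 0 CPM in the olig2 libraries and 10.2 and 24.5 CPM in the dbx1b libraries, so that both nkx2.2a libraries lay on top, as for pax9. The gene pax1b has nkx2.2b, the second Nkx2.2 copy, as the second protein-coding gene on one side. The level of nkx2.2b was 86.9 and 94.4 CPM in the nkx2.2a libraries and 26.5 and 81.8 CPM in the olig2 libraries, where pax1b had no fragment, and 0.702 and 9.56 CPM in the dbx1b libraries. The part of the reporter BAC in the pax1a result was not tested.

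**Figure D2:**
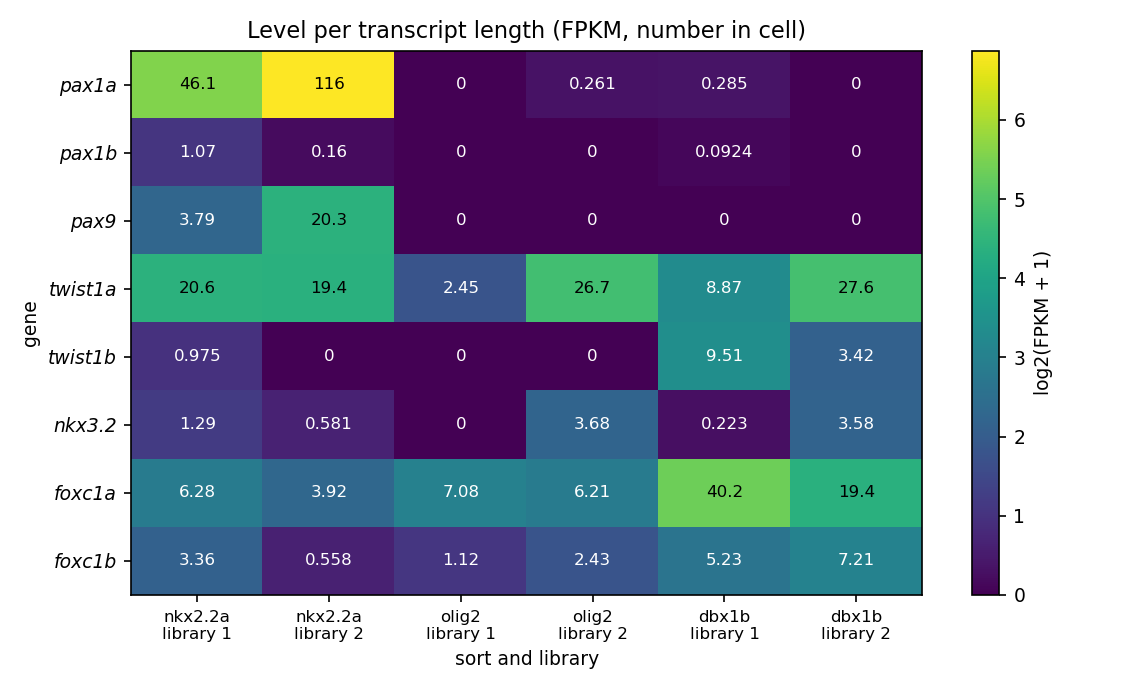
Level per transcript length (FPKM, number in each cell; colour, log2(FPKM + 1)) of the 8 genes (rows) in the 6 libraries (columns). In the nkx2.2a libraries pax1a is the highest of the 8 at 46.1 and 116 FPKM, and in the dbx1b libraries foxc1a or twist1a is.

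Compared per length, in fragments per 1000 bases per 1000000 mapped fragments (FPKM, TMM-scaled), pax1a was the most abundant of the 8 genes in nkx2.2a cells, at 81.2 ± 49.6 FPKM (SD, n = 2). It lay above 91.8% and 96.5% of all genes tested in nkx2.2a libraries 1 and 2. Next in order came twist1a at 20.0 ± 0.819 FPKM and pax9 at 12.03 ± 11.7 FPKM, which did not differ beyond their spread. The gene foxc1a followed at 5.10 ± 1.67 FPKM, within the spread of pax9. Its libraries lay above those of the remaining 4 genes, whose means were 0.488 to 1.96 FPKM with SDs of 0.501 to 1.98 FPKM and which were not separated from each other. In olig2 cells twist1a led in mean at 14.6 ± 17.1 FPKM and foxc1a followed at 6.64 ± 0.614 FPKM, again within their spread. Lower in mean were nkx3.2 at 1.84 ± 2.60 FPKM and foxc1b at 1.77 ± 0.930 FPKM. The olig2 libraries of foxc1a lay above those of nkx3.2 and foxc1b. However, twist1a overlapped nkx3.2, with 2.45 FPKM of twist1a in library 1 and 3.68 FPKM of nkx3.2 in library 2. In dbx1b cells foxc1a led at 29.8 ± 14.7 FPKM, followed by twist1a at 18.2 ± 13.2 FPKM, twist1b at 6.47 ± 4.31 FPKM and foxc1b at 6.22 ± 1.40 FPKM, each within the spread of its neighbour in that order. Below them in mean, nkx3.2 at 1.90 ± 2.37 FPKM did not overlap foxc1b but overlapped twist1b. In dbx1b library 2, nkx3.2 stood at 3.58 FPKM and twist1b at 3.42 FPKM.

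The Twist1 genes encode basic helix-loop-helix factors of mesenchyme. Transcripts of twist1a stood at 28.1 and 26.5 CPM in the nkx2.2a libraries, 3.35 and 36.4 CPM in the olig2 libraries and 12.1 and 37.7 CPM in the dbx1b libraries. All 3 sorts overlapped, and library 2 of the olig2 and of the dbx1b sort was higher than library 1 in each. Its paralog twist1b stood at 1.40 and 0 CPM in the nkx2.2a libraries, had 0 fragments in both olig2 libraries, and reached 13.7 and 4.92 CPM in the dbx1b libraries. Only its dbx1b libraries lay above the level of 3 fragments in both replicates, so twist1b passed the filter on low counts through that sort. In dbx1b library 1 the paralogs had 78 fragments (twist1b) and 69 fragments (twist1a), and in dbx1b library 2 they had 35 and 268, so the share of the pair taken by either copy was not stable between replicates.

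The gene nkx3.2 encodes a homeodomain factor and was low throughout. It stood at 2.03 and 0.913 CPM in the nkx2.2a libraries, 0 and 5.79 CPM in the olig2 libraries and 0.351 and 5.62 CPM in the dbx1b libraries. Its highest values were those of olig2 library 2 and dbx1b library 2, and the sorts overlapped. Transcripts of nkx3.2 thus did not follow those of pax1a: in the nkx2.2a cells its mean was 1.47 ± 0.788 CPM (SD, n = 2) beside 149.9 CPM of pax1a.

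The forkhead genes foxc1a and foxc1b were most abundant in dbx1b cells. The gene foxc1a, which is required for anterior somite formation in zebrafish, stood at 15.1 and 9.44 CPM in the nkx2.2a libraries, 17.0 and 15.0 CPM in the olig2 libraries and 96.7 and 46.8 CPM in the dbx1b libraries. The dbx1b libraries lay above the other 4, which overlapped among themselves. Its paralog foxc1b stood at 7.33 and 1.22 CPM in the nkx2.2a libraries, 2.43 and 5.31 CPM in the olig2 libraries and 11.4 and 15.7 CPM in the dbx1b libraries. The dbx1b libraries thus lay on top for both copies, and the nkx2.2a and olig2 libraries overlapped for both. As log2 fold changes of nkx2.2a over dbx1b cells, a contrast of the sort that chose the list and therefore given without a test, foxc1a was at -2.54 ± 0.76 (SE), foxc1b at -1.64 ± 1.35 and twist1a at 0.13 ± 1.07. Over olig2 cells the same 3 genes were at -0.37 ± 0.73, 0.16 ± 1.34 and 0.45 ± 1.08.

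The comparison of olig2 with dbx1b cells set no nkx2.2a library against another sort, and tests are given for foxc1a, foxc1b, twist1a and nkx3.2. None is given for pax1a, which chose the list, for pax9, with 0 fragments in both sorts, or for twist1b, which passed the filter only through the dbx1b sort. With edgeR's quasi-likelihood test and p adjusted over all 16956 genes, 0 of the 7 members that passed the filter, and so 0 of these 4, were called, where 0.0118% of all genes (2 genes) were. Without adjustment 1 of the 4 (foxc1a) had p under 0.05, as had 1718 of all 16956 genes. DESeq2 called 0 of the 4 (it gave nkx3.2 no adjusted p) and 492 of the same 16956 genes. The gene foxc1a was lower in olig2 cells in both libraries, with a log2 fold change of -2.16 ± 0.75 (SE, 95% interval -3.82 to -0.51, edgeR adjusted p = 0.408). The gene twist1b had 0 fragments in the olig2 libraries and 113 in the dbx1b libraries, which makes it at least 21.8-fold lower in olig2 cells against a floor of 3 fragments over the group. This bound pools the libraries of a sort and covers counting error only. For foxc1b the log2 fold change was -1.80 ± 1.37 (interval -4.83 to 1.23, edgeR adjusted p = 0.703), with both olig2 libraries below both dbx1b libraries. For twist1a it was -0.32 ± 1.07 (interval -2.70 to 2.06, edgeR adjusted p = 0.949), and 0.52 without olig2 library 1 or 0.72 without dbx1b library 2. For nkx3.2 it was -0.04 ± 2.03 (interval -4.55 to 4.47, edgeR adjusted p = 0.999), an interval that spans many-fold changes in either direction, with library 1 low and library 2 high in both sorts.

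In the contrasts that chose the list, edgeR likewise called 0 of the 7 members: 0 in nkx2.2a over olig2 cells, where 0% of all genes were called, and 0 in nkx2.2a over dbx1b cells, where 0.0059% were called (1 gene, nkx2.2a itself). Without adjustment 2 and 3 members had p under 0.05, and DESeq2 called 1 (pax1a) and 2 (pax1a and foxc1a); nothing is read from these counts, since the list was chosen on these contrasts. Of all 16956 genes tested in each contrast, 1579 and 1194 had an unadjusted edgeR p under 0.05. DESeq2 called 433 and 321 of the same 16956 genes. The genes pax1a, pax9 and twist1b each passed the filter only through the sort in which they were high.

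**Figure D3:**
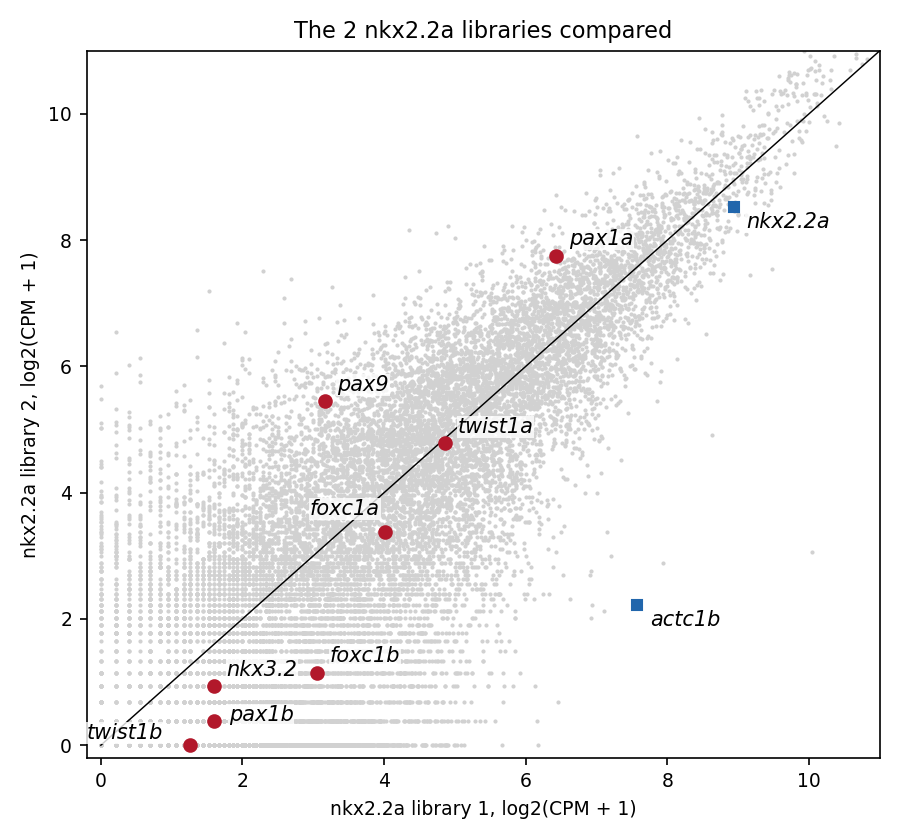
Level in nkx2.2a library 2 (vertical) against library 1 (horizontal), both as log2(CPM + 1), for the genes tested (grey; values over 11 lie off the axes), the 8 members (red circles) and, as blue squares, the reporter gene nkx2.2a and the muscle actin gene actc1b. The line marks equal levels; pax1a and pax9 lie above it, and the other 6 members lie on or below it, as does actc1b at 189.8 and 3.65 CPM.

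Within the nkx2.2a sort, the members parted by library. From library 1 to library 2, pax1a differed by 1.32 and pax9 by 2.28 on the log2(CPM + 1) scale, both higher in library 2, and the other 6 were lower there. The differences of those 6 were -0.08 for twist1a, -0.63 for foxc1a, -0.66 for nkx3.2, -1.21 for pax1b, -1.27 for twist1b and -1.91 for foxc1b. Over all genes tested, the median of this difference was -0.14, with 5% of genes below -2.92 and 5% above 2.11, so that pax9 alone of the 8 lay outside this range. Genes of the somite and muscle list, named here after their values were seen, went both ways between the same libraries. The actin gene actc1b, at 189.8 and 3.65 CPM, and the desmin gene desma, at 34.5 and 1.22 CPM, were higher in library 1. The muscle regulator myf6 went the other way, at 0 and 6.39 CPM. The presomitic gene tbx6, at 41.6 and 238 CPM, and ripply1, at 11.4 and 28.01 CPM, were higher in library 2, and the summed level of the 16 genes was 383 and 349 CPM. Their part in the parting of the members was not tested.

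Genes outside the list were also ranked by how like their levels were to those of pax1a. By Pearson's correlation of log2(CPM + 1) over 6 libraries, among 9361 named genes with a mean of 5 CPM or more, the 6 closest were fezf2 (0.996), snapc3 (0.987), utp18 (0.982), ctgfa (0.982), krt8 (0.981) and grhl3 (0.977). Members were not among the candidates, and the r of pax9 (0.978) lay between those of krt8 and grhl3. The forebrain zinc finger gene fezf2 stood at 34.3 and 62.4 CPM in the nkx2.2a libraries and at 3.96 to 6.14 CPM elsewhere. The keratin gene krt8 stood at 414 and 604 CPM against 87.4 to 138 CPM, and grhl3, which encodes a grainyhead-like factor of surface epithelium, at 112 and 135 CPM against 3.35 to 7.87 CPM. Each of the 6 stood at 3.35 CPM or more in every olig2 and dbx1b library, where pax1a was at or under the level of 3 fragments. The correlation does not measure the size of a difference. Levels of utp18 were 98.3 and 106 CPM in the nkx2.2a libraries and 58.6 to 64.2 CPM elsewhere. Those of snapc3 were 25.6 and 39.0 CPM against 10.4 to 12.8 CPM.

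Other genes of the sclerotome were set beside the members as a list of 23, of which 21 were tested. None was called by edgeR in any comparison over all genes. In nkx2.2a over olig2 cells 14 were positive and 7 negative, with a median log2 fold change of 0.85 against 0.02 over all genes; the median was 0.28 once the 2 genes without fragments in one sort were given their bound. In nkx2.2a over dbx1b cells 14 were positive and 7 negative, with a median of 0.43 against 0.00 (-0.00414) over all genes. The summed level of the list was 795 and 773 CPM in the nkx2.2a libraries, 880 and 521 CPM in the olig2 libraries and 724 and 763 CPM in the dbx1b libraries, so the sorts overlapped. The most abundant were cdh11, a cadherin gene of mesenchyme, the fibrillin gene fbn2b and the collagen gene col5a1. Levels of cdh11 were 254 and 154 CPM in the nkx2.2a libraries, 485 and 166 CPM in the olig2 libraries and 46.3 and 114 CPM in the dbx1b libraries. Of these, only col5a1 had both nkx2.2a libraries above the other 4, at 90.5 and 142 CPM against 39.6 to 74.4 CPM, and it was the only one of the 21 to do so (8.16% over all genes). Both dbx1b libraries lay on top for 4 of the 21 (9.85% over all genes), among them snai1a, scxa and prrx1a, and both olig2 libraries for 2 of the 21 (8.47% over all genes), snai2 and twist3, all named here after their values were seen. The tendon gene scxa stood at 34.4 and 11.1 CPM in the dbx1b libraries and had 1 fragment in nkx2.2a library 1 and 0 in the other 3.

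The presomitic genes tbx6 and msgn1, like foxc1a, foxc1b and twist1b, had both dbx1b libraries on top, as had 4 of the 12 somite and muscle genes tested (9.85% over all genes). The 16 somite and muscle genes summed to 1076 and 959 CPM in the dbx1b libraries, 383 and 349 CPM in the nkx2.2a libraries and 178 and 129 CPM in the olig2 libraries. Most of that sum in dbx1b cells was the presomitic gene tbx6, at 618 and 670 CPM, and msgn1, at 264 and 152 CPM. In olig2 over dbx1b cells 11 of the 12 tested were negative (median log2 fold change -1.82, against -0.03 over all genes) and 0 were called. In nkx2.2a over dbx1b cells 5 were positive and 7 negative, with a median of -0.37. Of the muscle regulators in the dbx1b libraries, myf5 stood at 18.3 and 4.92 CPM and myod1 at 7.72 and 1.97 CPM. There, myog stood at 2.98 and 0.984 CPM and myf6 at 0. These regulators were named after their values were seen. The part of presomitic cells in the forkhead and twist1b levels was not tested.

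**Figure D4:**
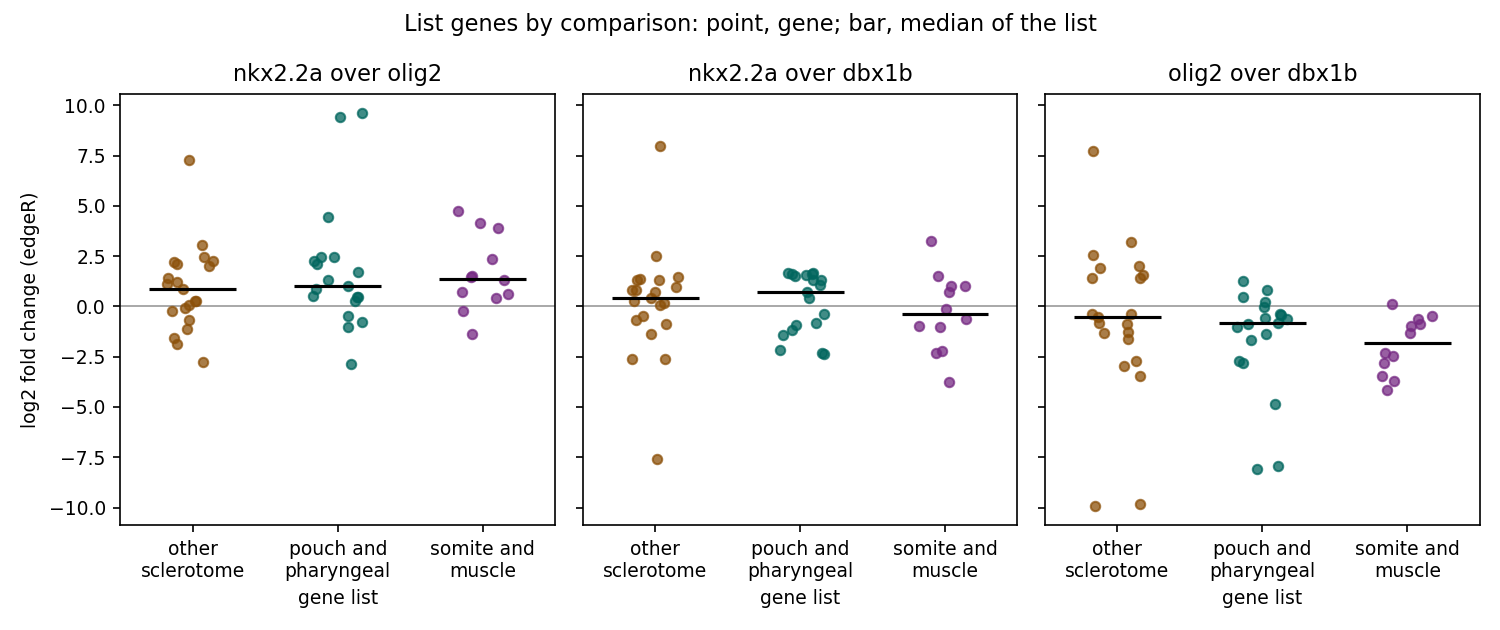
Log2 fold changes from edgeR (vertical axis) of the tested genes of 3 lists, other sclerotome genes (21), pouch and pharyngeal genes (19) and somite and muscle genes (12), in each comparison. Points are genes, with random horizontal spread, and bars are list medians; values of genes at 0 in a whole group depend on the prior count and are not bounds. The medians of all 3 lists lie below 0 in olig2 over dbx1b cells.

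Pouch and pharyngeal genes were set beside pax1a in the same way, as a list of 21 with 19 tested, and 0 were called by edgeR in any comparison. Of the 19, 15 were positive in nkx2.2a over olig2 cells (median log2 fold change 1.00, against 0.02 over all genes) and 11 in nkx2.2a over dbx1b cells (median 0.70, against 0.00 (-0.00414)). Both nkx2.2a libraries lay above the other 4 for 7 of the 19 (8.16% over all genes), and both dbx1b libraries for 3 (9.85% over all genes), fgf8a, edn1 and hoxa3a. The 7 were tbx1, nkx2.7, six1b, foxi1, alcama, foxa1 and foxa2, and these names were chosen after their values were seen. The T-box gene tbx1, which is needed for pouch formation, stood at 52.6 and 64.9 CPM in the nkx2.2a libraries, 8.22 and 12.8 CPM in the olig2 libraries and 10.4 and 45.0 CPM in the dbx1b libraries. The homeobox gene nkx2.7 of pharyngeal endoderm stood at 21.1 and 25.0 CPM in the nkx2.2a libraries against 2.74 to 10.7 CPM. The adhesion gene alcama was at 144 and 159 CPM against 40.2 to 69.5 CPM, while the other abundant members of the list, hoxb3a and hoxa3a, were lower in the nkx2.2a libraries (120 to 147 CPM and 17.96 to 57.2 CPM) than in the others (206 to 249 CPM and 74.0 to 102 CPM). The summed level of the list was 718 and 752 CPM in the nkx2.2a libraries, 526 and 506 CPM in the olig2 libraries and 694 and 833 CPM in the dbx1b libraries, so as a sum it did not part the nkx2.2a from the dbx1b sort. The endoderm genes sox32 and sox17 stood at 0.609 CPM or less in both nkx2.2a libraries. In the other libraries sox32 reached at most 0.562 CPM and sox17 at most 2.95 CPM. The level of nkx2.3 was 3.90 and 0.609 CPM in the nkx2.2a libraries and 1.21 CPM or less in the others. These genes were thus low in every sort, and were again named after their values were seen. Their part in the pax1a levels was not tested.

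Sources and targets of Hedgehog signal were counted too, since that signal induces Pax1 in the sclerotome. Of 11 tested notochord and floor plate genes, 8 had both nkx2.2a libraries above the other 4 (8.16% over all genes), and the summed level of all 12 listed was 924 and 1307 CPM in the nkx2.2a libraries against 349.9 to 561 CPM. The most abundant were col2a1a, at 293 and 535 CPM in the nkx2.2a libraries against 70.6 to 224 CPM, ntn1b, at 133 and 127 CPM against 11.2 to 106 CPM, and ta. The notochord and tailbud gene ta went the other way, at 19.96 and 4.57 CPM in the nkx2.2a libraries, 8.52 and 49.0 CPM in the olig2 libraries and 139 and 235 CPM in the dbx1b libraries. The Hedgehog ligand gene shha, named after its values were seen, was at 110 and 189 CPM against 21.5 to 44.8 CPM. Of 9 genes of the Hedgehog pathway, 3 had both nkx2.2a libraries on top, 1, gli2a, had both dbx1b libraries on top, and 0 were called by edgeR in any comparison. The part of these genes in the pax1a levels was not tested.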

How the data were processed

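For each library the authors deposited raw counts of reads mapped to each RefSeq transcript, with no normalisation. Bowtie 1.1.1, FastQC 0.11.3 and the build GRCz10 are named, without roles, in the submitters' processing notes. All counts were even, so they were divided by 2 to give fragments, then summed over the transcripts of each symbol. Unmapped reads (66.6% to 80.6% of fragments) stayed out of library sizes. Levels per length were computed from the counts and the deposited transcript lengths. Genes passed edgeR's filterByExpr (minimum count 10), and were fitted with edgeR 4.0.16 (R 4.3.3; TMM, quasi-likelihood, 1 mean per group, 6 libraries, 3 residual degrees of freedom) and called at Benjamini-Hochberg adjusted p under 0.05. The common dispersion was 0.593. The fit was tested on simulated data. Standard errors derive from the F statistic. The p-values thus reflect only how far these libraries spread, which may be technical.

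Members and lists were chosen with earlier results of these data known, the lists from general knowledge. The rule for named genes covered the members, called list genes, the 3 most abundant genes of each list, and the 6 genes most like pax1a; neighbours were taken by gene order, others are marked where named, and some genes that it covers are not reported here. Lists of gut and pancreas, neural crest, endothelium and blood, and lateral and nephric mesoderm genes were counted too. Members were matched to RefSeq by accession (8 of 8); GRCz12tu served only for gene order, and its coordinates are not printed. Protein and promoter sequences were not used here. The alternatives tried were leaving out each library, DESeq2 1.42.0, RLE scaling or none, other filters, undivided reads, transcripts as features, fits of 4 libraries only and a block for the replicate number.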

Additional observations from a re-analysis of the deposited data

How the results depend on the processing

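Counts of called genes depended on the tool and the filter. For the nkx2.2a sort against olig2, the nkx2.2a sort against dbx1b, and olig2 against dbx1b cells in turn, edgeR called 0, 1 and 2 genes, DESeq2 433, 321 and 492, and edgeR without a filter 216, 226 and 268; leaving out a library gave 0 to 11, 5 to 95 and 7 to 23. Under a replicate block the counts were 0, 8 and 5, and with only the 4 libraries compared 0, 20 and 0. Transcripts as features gave 0 in all 3, and in olig2 over dbx1b cells no composition scaling and undivided reads gave 0. The cause was not tested. The labels do not say what libraries with the same number share. Their deviations from the group means correlated at 0.0250, -0.00330 and 0.00210 over all genes tested, and whether they shared a batch was not tested. The block called pax1a in nkx2.2a over dbx1b cells and no other member. The fit of only the 4 libraries compared likewise called pax1a in nkx2.2a over dbx1b cells and no other member. DESeq2 called pax1a over both sorts and foxc1a in nkx2.2a over dbx1b cells, and edgeR without a filter called pax1a and pax9 over both sorts. With a library left out, pax1a had a log2 fold change of 8.09 to 12.5 over dbx1b cells and 8.22 to 12.6 over olig2 cells. Nothing is read from the calls of members in the nkx2.2a contrasts, since the list was chosen on pax1a there. In the main fit, pax1a and pax9 also passed the filter only through the nkx2.2a sort.

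Of 20 member results, 12 never took the opposite sign and 8 did. The 12 include pax1a and pax9 in both nkx2.2a contrasts and twist1b in every comparison. In each of these a sort held few or no fragments, so the sign could hardly change and is not read. The remainder of the 12 were results of foxc1a and foxc1b. Among the 12, twist1b in nkx2.2a over olig2 cells was 0 without nkx2.2a library 1. Of the 8, those with a test in olig2 over dbx1b cells were twist1a, which ranged from -2.89 to 0.72 with a library left out (positive without olig2 library 1, 0.52, or dbx1b library 2, 0.72), and nkx3.2. The latter ranged from -6.96 to 2.96 with a library left out (0.91 without olig2 library 1, 2.96 without dbx1b library 2) and was 0.00356 with RLE scaling and 0.000443 with DESeq2. For foxc1a, the difference of nkx2.2a over dbx1b cells lay between -2.96 and -1.93 and that of olig2 over dbx1b cells between -2.59 and -1.57 in the alternatives. With 15 fragments in all, pax1b is limited by depth.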

Other observations

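In 4 lists of other tissues, no summed level had both nkx2.2a libraries above the other 4. The 12 neural crest genes, a lineage in which twist1a is also known, summed to 503 and 782 CPM in the nkx2.2a libraries, 467 and 597 CPM in the olig2 libraries and 369 and 440.4 CPM in the dbx1b libraries. Of the 10 tested, 0 had both nkx2.2a libraries above the other 4 (8.16% over all genes). That count was 1 of 8 for gut and pancreas, 1 of 10 for endothelium and blood, and 0 of 7 for lateral and nephric mesoderm genes. The crest gene dlx2a stood at 10.1 and 40.2 CPM in the nkx2.2a libraries, 6.39 and 26.0 CPM in the olig2 libraries and 0 in both dbx1b libraries. Genes of gut and pancreas endoderm summed to 91.9 and 111 CPM in the nkx2.2a libraries and to 111 to 168 CPM in the others, and the insulin gene ins had 1 fragment in all 6 libraries together; dlx2a and ins were named after their values were seen. Endothelium and blood genes summed to 95.3 and 166 CPM in the nkx2.2a libraries, 121 and 307 CPM in the olig2 libraries and 73.5 and 98.6 CPM in the dbx1b libraries, and lateral and nephric mesoderm genes to 95.8 and 248 CPM, 84.9 and 184 CPM and 155 and 240 CPM. edgeR called 0 genes of these 4 lists in any comparison.

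Several mesenchymal genes differed widely between the libraries of one sort. The collagen gene col1a1a stood at 33.4 CPM in nkx2.2a library 1 and 0.304 CPM in library 2. The cartilage regulator gene sox9a stood at 120.5 CPM in olig2 library 1 and 5.31 CPM in library 2, and meox2 at 0.609 and 40.5 CPM in the same order. In the olig2 sort twist1a, at 3.35 and 36.4 CPM, and nkx3.2, at 0 and 5.79 CPM, were ranked as meox2 was and not as sox9a was. These genes were named after their values were seen.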
